A study of Mus musculus with 12 samples.

Results

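The 38 genes described here encode the machinery of macroautophagy, from the kinase complex that starts it to the receptors that bring cargo to it. They were named by a list of gene symbols, and all 38 were among the 15651 genes of the deposited expression table. RNA was measured in 12 libraries of c-Kit+ leukemic spleen cells, 2 libraries from each of 6 mice: the cells of every mouse were split between CCS1477 (inobrodib), a small-molecule ligand of the bromodomains of the acetyltransferases CBP and p300, and DMSO, and kept in culture for 6 h. The 3 D/F mice were Dnmt3a fl/fl, Flt3 ITD/ITD, Mx1-Cre and their cells received 4 µM CCS1477. The 3 T/F mice were Tet2 fl/fl, Flt3 ITD/ITD, Mx1-Cre and their cells received 2 µM, so that genotype and dose cannot be told apart. All 6 mice carried the homozygous Flt3 internal tandem duplication and were moribund with acute myeloid leukemia on a C57BL6/J background. No sample of normal cells was included for comparison. Mx1-Cre is driven by an interferon-inducible promoter that was left uninduced, so that 1 or both floxed alleles were lost spontaneously and the share of deleted cells may differ between mice.

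In autophagy a double membrane grows around cytoplasm or organelles, closes to an autophagosome and delivers its content to the lysosome. The ULK kinase complex and the class III PI3-kinase complex around Beclin 1 start the membrane, ATG9, ATG2 and WIPI proteins supply and position its lipids, and 2 ubiquitin-like conjugation systems attach proteins of the Atg8 family (LC3 and GABARAP) to it. Receptors such as p62, NBR1, optineurin and BNIP3L bind both cargo and Atg8 proteins. Blood-forming stem cells and myeloid leukemias are known to depend on the pathway for the turnover of mitochondria, and many of its genes can be switched on together at the level of transcription.

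Levels are given as TPM, in which the reads of a gene are corrected for transcript length and for the size of the library. The table held no read counts, so the depth behind each value is unknown. Ptprc was listed at only 0.826 to 3.11 TPM. The myeloid progenitor markers Kit (22.8 to 149 TPM) and Mpo (277 to 3673 TPM) were present in all 12 libraries. The summed level of all 8 progenitor and primary granule markers was 3626 to 10021 TPM in DMSO and 803 to 4277 TPM after CCS1477 in D/F, and 4154 to 6379 and 1666 to 3004 TPM in T/F, so it was lower after treatment with some overlap in D/F. Taken singly, Ptprc went the other way in D/F (1.95 ± 0.411 against 1.24 ± 0.399 TPM, SD, n = 3). Those groups were apart but not called (limma adjusted p = 0.222), and Ptprc was called lower in T/F (adjusted p = 0.0131). The sum of the 6 macrophage markers that were listed, of 8, was lower without overlap (6.13 to 7.24 against 34.1 to 48.7 TPM in D/F, 11.3 to 23.4 against 50.7 to 84.8 TPM in T/F). Taken singly, C1qb and C1qc overlapped in T/F and Mrc1 in D/F. The sum of the 8 mature neutrophil markers was as high as that of the progenitor markers in many libraries and overlapped between treatments. It was 2689 to 9465 TPM in DMSO and 1632 to 9352 TPM after CCS1477 in D/F, and 2336 to 7169 and 2494 to 6910 TPM in T/F. Taken singly, Camp, Retnlg, Mmp8 and Mmp9 were lower in each mouse, and S100a8, S100a9, Ngp and Ltf had no direction common to all mice. Retnlg was called lower in D/F (8.06 ± 5.84 against 42.8 ± 20.1 TPM, SD, n = 3, limma adjusted p = 0.0418). Mmp8 was called lower in T/F (34.9 ± 17.6 against 116 ± 70.5 TPM, adjusted p = 0.0480). The sum of the 4 listed mast cell and basophil markers of 5 was lower (18.8 to 44.0 against 89.5 to 183 TPM in D/F, 19.2 to 38.6 against 42.5 to 81.0 TPM in T/F). Taken singly, Prss34 overlapped in D/F and Cpa3 in T/F. The sum of Pecam1 and Pdgfrb, the 2 listed of 5 stromal and endothelial markers, was lower as well (19.7 to 27.8 against 94.7 to 161 TPM in D/F, 16.8 to 24.0 against 57.8 to 74.3 TPM in T/F). Pecam1 was lower without overlap in both genotypes, whereas Pdgfrb overlapped in both and was not called (limma adjusted p = 0.385 and 0.717). The sum of the 5 listed megakaryocyte markers of 6 was lower in T/F (45.7 to 46.9 against 62.9 to 68.3 TPM) and overlapped in D/F. Taken singly, Pf4, Itga2b and Vwf overlapped in T/F. The sum of the 3 listed T cell markers of 7 overlapped. Of the 3 listed B cell markers of 6, Ighm was higher in T/F (102 ± 13.6 against 36.4 ± 4.62 TPM), while Cd79b was lower (12.2 ± 1.25 against 16.6 ± 1.41 TPM) and Ebf1 was at 1.41 ± 0.272 and 1.53 ± 0.343 TPM (SD, n = 3). Among these markers Ppbp alone was at 0 in a library, and the part of these cell types in the results below was not tested. Gene-level TPM does not resolve the floxed exons, so Dnmt3a (29.3 to 55.7 TPM in D/F and 39.9 to 53.9 TPM in T/F under DMSO) and Tet2 (38.3 to 43.4 and 30.0 to 35.8 TPM) do not check the genotype labels. Among the D/F mice, mouse 2 stood apart: it had the highest level of the 3 for 26 of the 38 members in DMSO and for 27 after CCS1477. The same count over all genes is not given. Its DMSO library also differed in markers from those of mice 1 and 3. Cd34 (447 against 110 and 138 TPM) and Kit (149 against 50.5 and 60.9 TPM) were higher. Mpo (1163 against 3673 and 2646 TPM) and Ltf (32.6 against 253 and 191 TPM) were lower.

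After 6 h of CCS1477 most of the autophagy machinery was at a higher level than in DMSO, and 28 of the 38 members were higher in every one of the 6 mice. Those called above 2-fold in at least 1 genotype were the kinases Ulk1 and Ulk2, the LC3 genes Map1lc3a and Map1lc3b and the receptors Optn and Bnip3l, whose mean TPM was between 1.88-fold and 2.97-fold that of DMSO in the 2 genotypes. The E1-like enzyme Atg7, its substrate Atg12 and the lipid transporter Atg2b fell in T/F. These calls were lost in a fit of all 4 groups and kept in a fit with a term for the mouse. Changes are log2 differences of (TPM + 1), CCS1477 minus DMSO, tested with limma across all genes and given with their SE. A gene was called at a Benjamini-Hochberg adjusted p under 0.05.

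In T/F cells 25 of 38 members rose, against 25.8% of 15256 genes tested, and 3 fell (Atg2b, Atg7 and Atg12), against 17.6% of all genes. Of those that rose, 5 did so by more than 2-fold (Ulk1, Ulk2, Map1lc3a, Map1lc3b and Bnip3l), against 2.63% of all genes. The median change of the 38 members was 0.40 on the log2 scale, beside 0.07 over all genes tested. Without T/F mouse 1, 2 or 3 there were 15, 15 and 21 members called higher and 1, 0 and 1 called lower. A fit of all 4 groups called 15 higher and 0 lower, with 25 of 38 at an unadjusted p under 0.05. The share over all genes is not given for the fits without a mouse or of 4 groups. Their counts thus show how the calls depend on the test and not how the members compare with all genes. The levels are sums over all cells of a library, in which fewer cells of a type and less RNA per cell cannot be told apart.

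In D/F cells 6 of 38 members rose (Ulk1, Ulk2, Atg4d, Map1lc3a, Gabarapl2 and Optn), against 5.14% of 15501 genes tested, and 4 of them by more than 2-fold (Ulk1, Ulk2, Map1lc3a and Optn), against 2.67%. No member was called lower by limma, against 6.51% of all genes, and 21 of 38 had an unadjusted p under 0.05, against 30.4%. The median change was 0.54, beside 0.06 over all genes. Because the 2 libraries of a mouse share their source, the fit was repeated with a term for the mouse (a block): then 23 members rose and 1 (Atg7) fell, against 21.4% and 18.0% of all genes, and 9 rose by more than 2-fold, against 4.23%. The D/F calls also depended on which mice were included. Without mouse 1 or mouse 3 no gene of the table was called by limma, with 11 and 7 members at an unadjusted p under 0.05, whereas without mouse 2 there were 13 members called higher. With the block, 15 members were called higher without mouse 1, 18 without mouse 2 and 0 without mouse 3, the last with 22 at an unadjusted p under 0.05. Other than where no gene was called, the share over all genes is not given for fits without a mouse. Those counts do not compare the members with all genes.

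Within mice the direction was more uniform than these counts. In each of the 6 mice 32 of the 38 members were higher in the CCS1477 library than in the DMSO library of the same mouse. In 28 members this held in all 6 mice, against 32.3% of 15174 genes, and 3 members (Atg2b, Atg7 and Tax1bp1) were lower in all 6, against 24.5%. All 3 CCS1477 libraries lay above all 3 DMSO libraries for 22 members in D/F (19.9% of all genes) and for 27 in T/F (33.5%). They lay below for 1 member in D/F (16.7%) and for 4 in T/F (22.6%). In 1 fit over both genotypes 25 members rose and 3 fell, against 25.8% and 19.6% of 15583 genes (5 fell with the block, against 25.9%), and 8 rose by more than 2-fold, against 3.10%. Of these 8, 5 passed without D/F mouse 2, a setting for which the share over all genes is not given.

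**Figure D1:**
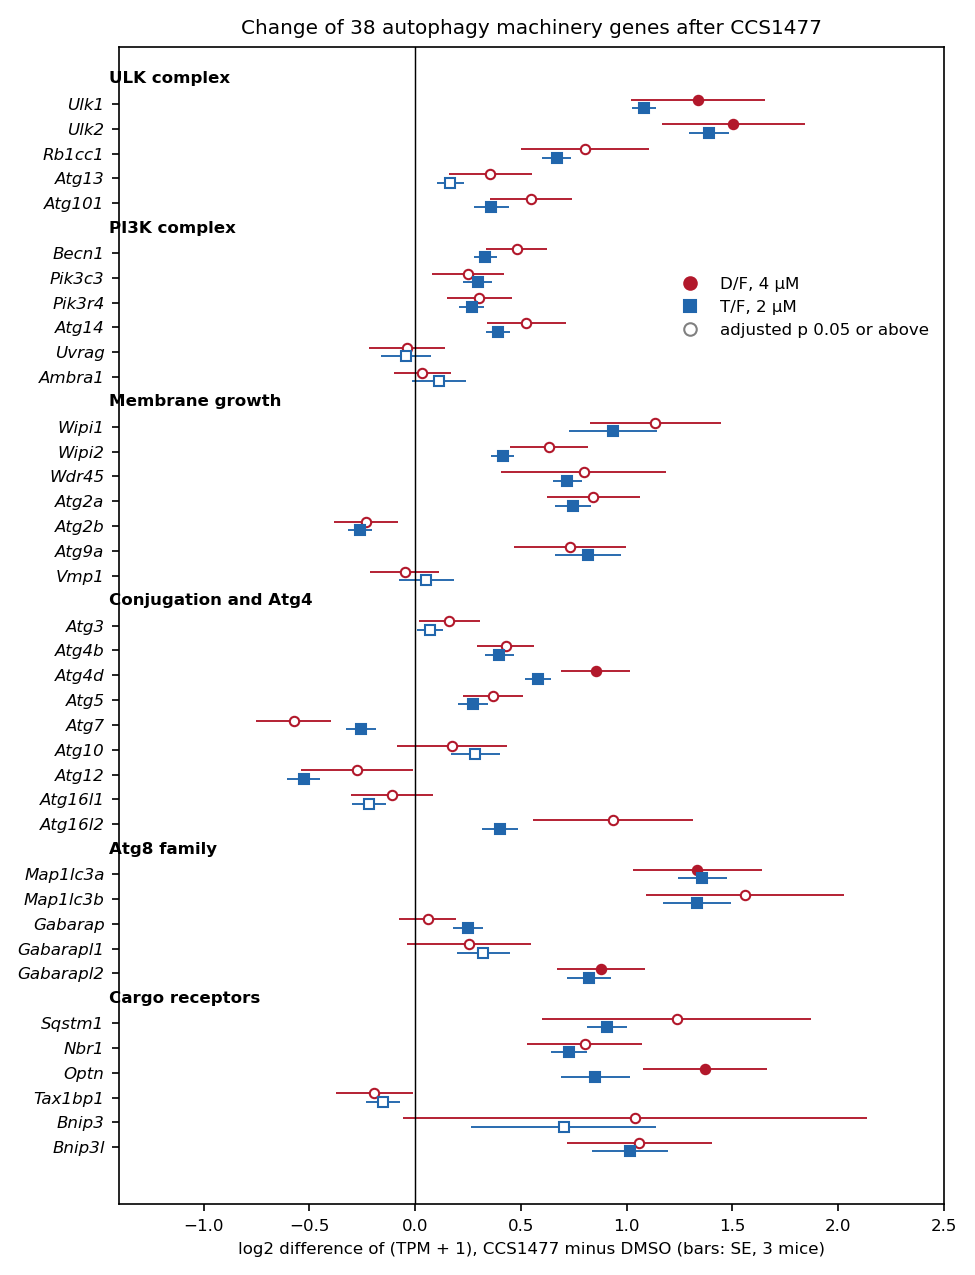
Change of each of the 38 members after CCS1477, grouped by role. The x axis is the log2 difference of (TPM + 1), points are the D/F (circles) and T/F (squares) estimates with their SE from 3 mice each, and filled symbols passed adjusted p under 0.05. Most points lie right of 0, and the filled points left of it are Atg2b, Atg7 and Atg12 in T/F.

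**Figure D2:**
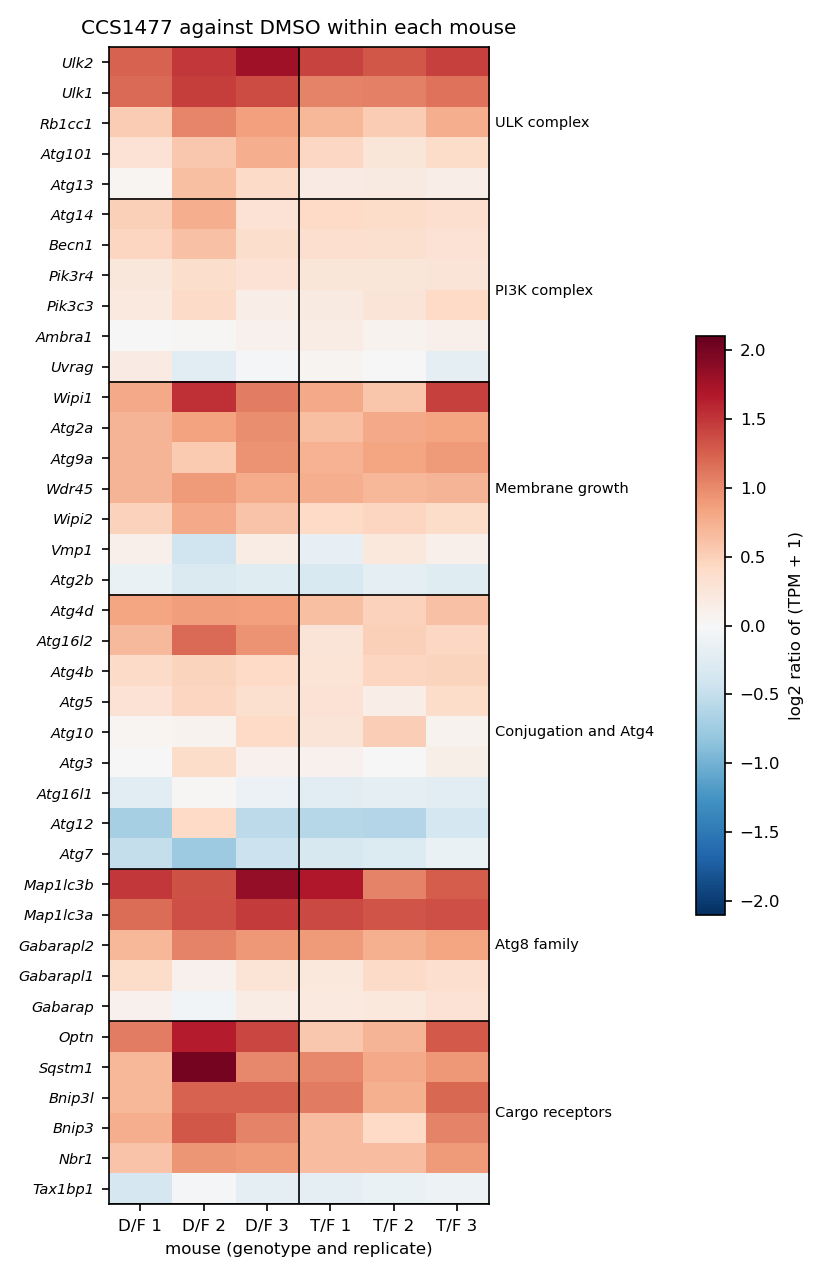
Log2 ratio of (TPM + 1) between the CCS1477 and the DMSO library of each mouse, for the 38 members (rows, grouped by role) and 6 mice (columns). Red is higher and blue lower after CCS1477, and each column has 32 red rows, of which 28 are red in all 6 mice.

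Without the block 6 members were called higher in both genotypes, and with it 23 were. The share of all genes called higher in D/F also moved with the block, from 5.14% to 21.4%. The share called in both genotypes was not counted, so these 2 counts do not compare the members with all genes. The sequences just upstream of the transcription start are shown for 5 of the 6 members called without the block, and for Atg3, which was not called in either genotype, for contrast. They are RefSeq sequences on build GRCm38.p6, written 5′ to 3′ in the direction of the gene and ending at the annotated start or, where a GENCODE transcript begins earlier, before that transcript. Of the 38 members 31 had an entry in the promoter table, and Map1lc3a, Rb1cc1, Becn1, Pik3c3, Atg12, Atg16l1 and Bnip3l did not. Capitals mark the 2 kinds of motif present in these stretches, CACGTG in Atg3 and TGACNNNGC in Ulk2.
Ulk1, chr5:110810098-110810331, minus strand: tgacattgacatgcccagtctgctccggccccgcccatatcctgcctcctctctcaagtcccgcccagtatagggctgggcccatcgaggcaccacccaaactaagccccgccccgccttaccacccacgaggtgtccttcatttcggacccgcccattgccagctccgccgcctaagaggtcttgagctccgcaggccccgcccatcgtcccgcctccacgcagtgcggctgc
Ulk2, chr11:61855093-61855342, minus strand: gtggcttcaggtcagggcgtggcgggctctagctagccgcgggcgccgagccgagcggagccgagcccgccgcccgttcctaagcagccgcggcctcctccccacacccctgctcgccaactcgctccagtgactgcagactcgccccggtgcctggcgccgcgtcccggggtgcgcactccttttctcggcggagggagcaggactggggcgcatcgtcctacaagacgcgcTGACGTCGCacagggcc
Atg4d, chr9:21265035-21265284, plus strand: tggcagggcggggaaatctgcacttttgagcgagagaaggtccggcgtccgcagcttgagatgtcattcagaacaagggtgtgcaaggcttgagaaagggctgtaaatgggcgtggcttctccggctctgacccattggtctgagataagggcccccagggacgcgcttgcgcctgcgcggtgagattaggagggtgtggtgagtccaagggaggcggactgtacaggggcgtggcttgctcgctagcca
Gabarapl2, chr8:111940453-111940702, plus strand: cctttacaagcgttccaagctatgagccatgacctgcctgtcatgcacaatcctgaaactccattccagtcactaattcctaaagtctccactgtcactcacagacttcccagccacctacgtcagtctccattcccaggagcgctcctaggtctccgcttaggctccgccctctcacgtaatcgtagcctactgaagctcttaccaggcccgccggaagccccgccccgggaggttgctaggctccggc
Optn, chr2:5064118-5064367, minus strand: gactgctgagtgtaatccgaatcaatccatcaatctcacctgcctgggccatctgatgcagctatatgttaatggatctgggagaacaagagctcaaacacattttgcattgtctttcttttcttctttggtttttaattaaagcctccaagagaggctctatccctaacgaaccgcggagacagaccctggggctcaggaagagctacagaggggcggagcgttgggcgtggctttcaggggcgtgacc
Atg3, chr16:45158579-45158784, plus strand: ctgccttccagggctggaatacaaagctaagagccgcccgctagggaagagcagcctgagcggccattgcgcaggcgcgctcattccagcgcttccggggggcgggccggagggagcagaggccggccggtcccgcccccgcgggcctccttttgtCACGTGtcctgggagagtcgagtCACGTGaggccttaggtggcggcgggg

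Within these stretches the number of CG dinucleotides ran from 8 in Optn to 31 in Ulk2, each over 250 bases. The median over the 250 upstream bases was 16 CG dinucleotides and a GC content of 59.6% for the 35 promoters of members, beside 6 and 52.4% for all 32851 promoters. Exact matches on both strands were searched from 250 bases before to 50 bases after the start. The E-box CACGTG, the letters bound by TFEB, TFE3 and MYC among others, was in 5 of the 35 member promoters (14.3%) and in 7.15% of all promoters. Its holders were Atg14, Atg3, Atg5, Atg7 and Bnip3, and Atg14 and Atg5 rose and Atg7 fell in T/F. The forkhead letters GTAAACA were in 0 of 35 and in 3.65% of all promoters. The antioxidant response letters TGACNNNGC were in 7 of 35 promoters (20.0%, from 5 members) and in 12.4% of all promoters, and the Ulk2 match began at position -17. Searched motifs did not overlap each other in the stretches shown.

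Within the ULK complex, which receives the signals of nutrient state, both kinases rose in both genotypes. Of its 5 genes 4 rose in T/F and 2 in D/F (4 with the block). Ulk1 (ENSMUSG00000029512), the kinase that phosphorylates the Beclin 1 complex, was listed in D/F mice 1, 2 and 3 at 16.4, 25.0 and 13.992 TPM in DMSO and 39.0, 69.7 and 37.6 TPM after CCS1477. In T/F mice it was at 14.3, 14.4 and 13.6 TPM in DMSO and 30.6, 31.1 and 31.1 TPM after CCS1477. The treated libraries lay above all DMSO libraries in both genotypes, with D/F mouse 2 highest and the T/F mice almost identical. The log2 change was 1.34 ± 0.32 (SE, n = 3 mice) in D/F (limma adjusted p = 0.0447) and 1.08 ± 0.06 in T/F (adjusted p = 0.000334), which is 2.64-fold and 2.19-fold between the mean TPM of the groups.

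Ulk2 (ENSMUSG00000004798), the paralog of Ulk1, was at 19.5, 27.1 and 12.3 TPM in DMSO and 47.4, 77.4 and 44.9 TPM after CCS1477 in the D/F mice. In the T/F mice it was at 13.9, 13.7 and 15.4 TPM in DMSO and 38.8, 35.4 and 43.4 TPM after CCS1477. Treated and DMSO libraries did not overlap in either genotype. The log2 change reached 1.50 ± 0.34 in D/F (limma adjusted p = 0.0387) and 1.39 ± 0.10 in T/F (adjusted p = 0.000488), the largest of the 38 members in T/F. With a pseudocount of 0.1 the D/F adjusted p of Ulk1 was 0.0563 and that of Ulk2 0.0507.

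Rb1cc1 (FIP200), the scaffold of the complex and its most abundant member, was at 71.1, 93.7 and 58.1 TPM in DMSO and 103, 191 and 107 TPM after CCS1477 in D/F. In T/F it was at 56.5, 62.2 and 56.6 TPM in DMSO and 92.6, 90.5 and 97.2 TPM after CCS1477. Treated libraries lay above all DMSO libraries in both genotypes, with mouse 2 the highest in D/F. The gene rose in T/F by 0.67 ± 0.07 (limma adjusted p = 0.00123). In D/F the change of 0.80 ± 0.30 did not pass the test (adjusted p = 0.133, and 0.0153 with the block). The adaptor subunits changed less: Atg101 rose in T/F by 0.36 and had a change of 0.55 in D/F (adjusted p = 0.117, and 0.0331 with the block). Atg13 had changes of 0.36 (D/F) and 0.17 (T/F) that were not called (adjusted p = 0.272 and 0.0807, the latter 0.0477 with the block).

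Within the PI3-kinase complex, which makes the lipid that marks the site of membrane growth, 4 of 6 members rose in T/F and none was called in D/F (2 with the block, Becn1 and Atg14). Becn1 (Beclin 1), the most abundant of them, was at 88.8, 93.3 and 99.8 TPM in DMSO and 122, 144 and 129 TPM after CCS1477 in D/F. In T/F it was at 104, 104 and 104 TPM in DMSO and 133, 132 and 128 TPM after CCS1477. In both genotypes every treated library lay above the DMSO libraries. The change was 0.48 ± 0.15 in D/F (limma adjusted p = 0.0814, and 0.0251 with the block) and 0.33 ± 0.05 in T/F (adjusted p = 0.00521, with 0.0708 without T/F mouse 1 and 0.0687 without mouse 2). Becn1 shares 3104 exonic bases with Cntd1 on the other strand. The strand setting of the quantification is not given in the sources used here, so reads within the shared bases cannot be told apart by gene. The same holds for 7 other members with a listed gene on the other strand, by 1405 bases in Atg4d, 580 in Sqstm1, 383 in Atg2b and 25 to 73 in Optn, Map1lc3b, Atg9a and Atg16l2.

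The other T/F increases in this group were small. Atg14, which directs the complex to autophagosomes, rose by 0.39 (in D/F its change was 0.53 with adjusted p = 0.118, and 0.0350 with the block), the lipid kinase Pik3c3 (VPS34) by 0.30 and its regulatory subunit Pik3r4 by 0.27. Uvrag, which belongs to the endosomal form of the complex, had a change of -0.04 ± 0.12 in T/F and -0.04 ± 0.18 in D/F. Ambra1, a scaffold that links Beclin 1 to ULK1, had 0.11 ± 0.13 and 0.03 ± 0.13. For both genes the treated and DMSO libraries overlapped in both genotypes.

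Among the 7 genes of membrane supply and growth, 5 rose and 1 fell in T/F, and none was called in D/F (5 rose with the block). Of the phosphoinositide-binding WIPI proteins, 3 of 4 genes rose in T/F. Wipi1 was at 8.61 ± 2.55 TPM (SD, n = 3 mice) in DMSO and at 16.9 ± 0.464 TPM after CCS1477, Wipi2 at 41.0 ± 0.540 and 54.9 ± 0.974 TPM and Wdr45 (WIPI4) at 16.6 ± 0.770 and 28.1 ± 1.17 TPM. Wdr45b (WIPI3), which belongs to one of the further lists below, was at 57.4 ± 4.45 and 51.8 ± 2.17 TPM and was not called (limma adjusted p = 0.197). Atg9a, the membrane protein of the seed vesicles, rose in T/F by 0.82. In D/F the changes of Wipi1, Wipi2, Wdr45 and Atg9a were between 0.63 and 1.14, with adjusted p from 0.0625 to 0.227 and, with the mouse as a block, from 0.00822 to 0.0157.

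The paralogs Atg2a and Atg2b, which carry lipids from the endoplasmic reticulum into the growing membrane, moved in opposite directions in T/F. Atg2a went from 21.2 ± 0.635 to 36.4 ± 3.51 TPM in T/F, a rise of 0.75 ± 0.09 (limma adjusted p = 0.00171). In D/F its levels were 25.7 ± 5.38 and 46.9 ± 9.46 TPM (adjusted p = 0.0568, and 0.00864 with the block). Atg2b went from 23.0 ± 0.416 to 19.0 ± 0.600 TPM in T/F, a change of -0.26 ± 0.06 (adjusted p = 0.0147). Without T/F mouse 1, 2 or 3 its adjusted p was 0.137, 0.0861 and 0.0671, in a fit of all 4 groups it was 0.0841, and with the block it was 0.0194. In D/F Atg2b was lower in each of the 3 mice, with overlapping groups and a change of -0.23 ± 0.15 (adjusted p = 0.354).

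Vmp1, a lipid scramblase of the endoplasmic reticulum, was the most abundant gene of this group and showed no common direction. It was at 113, 140.1 and 117 TPM in DMSO and 123, 105 and 129.9 TPM after CCS1477 in D/F. In T/F it was at 133, 133 and 149 TPM in DMSO and 119, 156 and 159.9 TPM after CCS1477. Groups overlapped in both genotypes, and 2 of 3 mice were higher in each. The changes of -0.05 ± 0.17 and 0.05 ± 0.13 were within their error, and their sign turned with quantile normalization in D/F and with rescaling to the median gene in T/F.

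The conjugation systems were the least uniform group. In T/F 4 of 9 genes rose (Atg4b, Atg4d, Atg5 and Atg16l2), 2 fell (Atg7 and Atg12) and 3 were not called. In D/F 1 rose (Atg4d), and with the block 4 rose and Atg7 fell. Atg4d, a protease that trims Atg8 proteins before conjugation and releases them later, was at 17.4, 13.7 and 15.9 TPM in DMSO and 31.6, 25.9 and 29.8 TPM after CCS1477 in D/F. In T/F it was at 15.8, 17.1 and 15.9 TPM in DMSO and 25.1, 24.3 and 25.0 TPM after CCS1477. All treated libraries were above the DMSO libraries, and the DMSO levels of the 6 mice lay within 13.7 to 17.4 TPM.

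The rise of Atg4d was 0.85 ± 0.16 in D/F (limma adjusted p = 0.0261) and 0.58 ± 0.06 in T/F (adjusted p = 0.00132). In D/F the adjusted p was 0.0608 after rescaling each library to its median gene. Its relative Atg4b rose in T/F by 0.40 and had a change of 0.43 in D/F (adjusted p = 0.0869, and 0.0233 with the block).

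None of the E1-like and E2-like enzymes of conjugation was called higher. Atg7, the E1-like enzyme shared by both systems and named after its values were seen, was at 17.3, 17.5 and 13.3 TPM in DMSO and 11.998, 9.85 and 9.40 TPM after CCS1477 in D/F. In T/F it was at 14.7, 15.4 and 14.3 TPM in DMSO and 11.5, 12.4 and 12.9 TPM after CCS1477. All treated libraries lay below all DMSO libraries in both genotypes. The change was -0.57 ± 0.18 in D/F (limma adjusted p = 0.0866, and 0.0208 with the block) and -0.26 ± 0.07 in T/F (adjusted p = 0.0280). In T/F the adjusted p was 0.169, 0.163 and 0.0569 without mouse 1, 2 or 3, 0.175 in a fit of all 4 groups and 0.0317 with the block. The E2-like enzyme Atg3, which hands on LC3, had changes of 0.16 ± 0.14 and 0.07 ± 0.06, and Atg10, which hands on ATG12, had 0.17 ± 0.26 and 0.29 ± 0.12, none of them called.

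Atg12, the ubiquitin-like protein that is joined to ATG5, went from 50.3 ± 4.11 to 34.5 ± 0.745 TPM in T/F (limma adjusted p = 0.00374, with 0.00833 with the block, 0.0610 without T/F mouse 2 and 0.0856 in a fit of all 4 groups). In D/F it was lower in mice 1 and 3 and higher in mouse 2 (68.0, 35.3 and 61.1 TPM in DMSO, 41.4, 47.8 and 41.5 TPM after CCS1477), and without mouse 2 its change of -0.62 was called (adjusted p = 0.0316). Its partner Atg5 rose in T/F by 0.27 and had a change of 0.37 in D/F (adjusted p = 0.144, and 0.0369 with the block). Atg16l1, which places the ATG12-ATG5 conjugate on the membrane and is the most abundant of this group, was at 62.1, 73.3 and 58.3 TPM in DMSO and 53.0, 74.3 and 53.6 TPM after CCS1477 in D/F. In T/F it was at 64.1, 65.8 and 72.3 TPM in DMSO and 54.7, 56.8 and 61.7 TPM after CCS1477. The T/F groups did not overlap and the D/F groups did, and neither change was called (-0.22 ± 0.08 in T/F with limma adjusted p = 0.0704, and 0.0228 with the block, and -0.11 ± 0.19 in D/F). Its paralog Atg16l2 rose in T/F by 0.40 and had a change of 0.94 ± 0.38 in D/F (adjusted p = 0.157, and 0.0114 with the block).

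The Atg8 family showed its largest relative increases in its least abundant members. Of its 5 genes 4 rose in T/F and 2 in D/F (3 with the block).

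Map1lc3a (LC3A), the lowest of all 38 members in DMSO, was at 4.71, 7.15 and 3.44 TPM in DMSO and 11.9, 19.9 and 11.3 TPM after CCS1477 in D/F. In T/F it was at 3.35, 3.73 and 4.40 TPM in DMSO and 10.4, 10.8 and 12.8 TPM after CCS1477. Treated and DMSO libraries were fully apart in both genotypes. The gene rose by 1.34 ± 0.31 in D/F (limma adjusted p = 0.0409, and 0.0512 with a pseudocount of 0.1) and by 1.36 ± 0.12 in T/F (adjusted p = 0.000752), or 2.82-fold and 2.97-fold in mean TPM.

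Map1lc3b (LC3B), the form most used as a marker of autophagosomes, was at 16.4, 31.5 and 9.61 TPM in DMSO and 47.7, 81.5 and 37.3 TPM after CCS1477 in D/F. In T/F it was at 11.2, 17.7 and 13.5 TPM in DMSO and 37.992, 37.5 and 34.1 TPM after CCS1477. Mouse 2 was highest before and after treatment in D/F, and groups did not overlap in either genotype. The change was 1.56 ± 0.47 in D/F (limma adjusted p = 0.0790, and 0.00558 with the block) and the rise in T/F was 1.33 ± 0.16 (adjusted p = 0.00195).

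Gabarapl2 (GATE-16) was at 41.7, 46.2 and 34.5 TPM in DMSO and 68.0, 95.7 and 65.6 TPM after CCS1477 in D/F. In T/F it was at 36.5, 34.7 and 40.4 TPM in DMSO and 68.5, 58.9 and 72.4 TPM after CCS1477. It was the third member of the family with treated libraries above all DMSO libraries in both genotypes, with rises of 0.88 ± 0.21 in D/F (limma adjusted p = 0.0450, and 0.0548 with a pseudocount of 0.1) and 0.82 ± 0.10 in T/F (adjusted p = 0.00221).

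Gabarap, by far the most abundant of the family, was at 187, 197 and 176 TPM in DMSO and 198, 190.2 and 196 TPM after CCS1477 in D/F. In T/F it was at 200.1, 216 and 196 TPM in DMSO and 231, 253 and 243 TPM after CCS1477. The D/F groups overlapped and the T/F groups did not. The T/F rise was 0.25 ± 0.07 (limma adjusted p = 0.0338), and it was not called after rescaling to the median gene (0.17, adjusted p = 0.184) or without T/F mouse 1, 2 or 3 (adjusted p = 0.130, 0.112 and 0.148). The D/F change was 0.06 ± 0.13 (adjusted p = 0.807). Gabarapl1 had changes of 0.25 ± 0.29 and 0.32 ± 0.12 that were not called (adjusted p = 0.604 and 0.0825, the latter 0.0169 with the block).

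The LC3 genes thus made up a larger part of the family after CCS1477, as the bar plot of Atg8 shares shows. LC3A and LC3B together made up 7.17%, 10.6% and 4.76% of the summed Atg8-family TPM in the DMSO libraries of D/F mice 1, 2 and 3 and 15.5%, 21.3% and 13.1% after CCS1477. In T/F they made up 4.74%, 6.67% and 5.68% in DMSO and 11.7%, 11.4% and 10.6% after CCS1477. The groups were apart in both genotypes, with means of 7.49% ± 2.91 and 16.6% ± 4.21 (SD, n = 3) in D/F and of 5.70% ± 0.965 and 11.3% ± 0.558 in T/F. In each genotype the exact two-sided permutation p was 0.1 (Benjamini-Hochberg adjusted p = 0.1 over 6 such tests), the smallest that 3 against 3 libraries allow. That test could thus not have called a difference, and no conclusion is drawn from it. The share of Gabarap was lower, 60.5% ± 5.76 against 48.0% ± 7.08 in D/F and 64.9% ± 2.69 against 56.9% ± 2.36 in T/F.

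**Figure D3:**
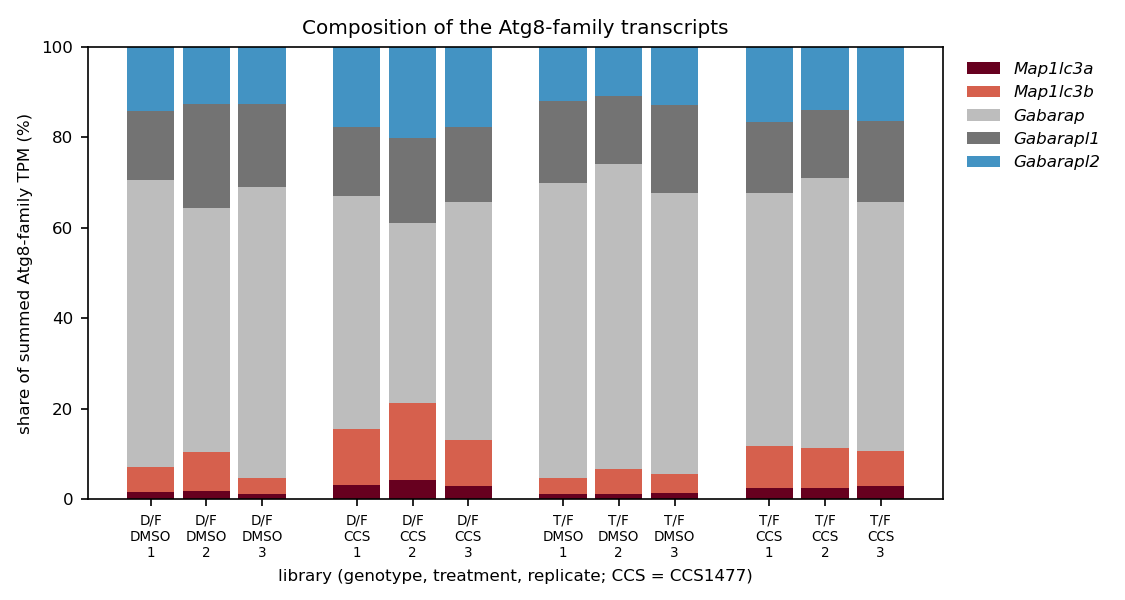
Share of each of the 5 Atg8-family genes in their summed TPM, in percent, for each of the 12 libraries (bars, ordered by genotype, treatment and replicate). The LC3 shares at the foot of the bars are larger in all CCS1477 libraries (10.6% to 21.3%) than in the DMSO libraries of the same genotype (4.74% to 10.6%).

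Among the cargo receptors 4 of 6 rose in T/F, 1 of which (Optn) also rose in D/F (5 with the block). Tax1bp1 was the only one with a lower level after treatment. Optn (optineurin), a receptor for ubiquitin-tagged mitochondria and bacteria, was at 9.33, 10.8 and 6.60 TPM in DMSO and 20.7, 36.0 and 19.0 TPM after CCS1477 in D/F. In T/F it was at 11.1, 8.70 and 7.17 TPM in DMSO and 16.9, 14.9 and 18.9 TPM after CCS1477. Groups were apart in both genotypes, with mouse 2 the highest in D/F. The rise was 1.37 ± 0.29 in D/F (limma adjusted p = 0.0352) and 0.85 ± 0.16 in T/F (adjusted p = 0.00883, and 0.0670 without T/F mouse 2).

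Bnip3l (NIX), which sits in the outer mitochondrial membrane and recruits LC3 during mitophagy, was at 227, 119 and 99.3 TPM in DMSO and 368, 284 and 236 TPM after CCS1477 in D/F. In T/F it was at 92.7, 134 and 85.7 TPM in DMSO and 199.6, 226 and 199 TPM after CCS1477. Treated libraries lay above all DMSO libraries in both genotypes, with D/F mouse 1 the highest. The T/F rise was 1.02 ± 0.18 (limma adjusted p = 0.00647, and 0.0635 without T/F mouse 1), and the D/F change of 1.06 ± 0.34 was called in the fit with the mouse as a block (adjusted p = 0.0119) and not without it (adjusted p = 0.0950).

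Bnip3 and Sqstm1 are described although they were picked after their values were seen. Bnip3, the paralog of Bnip3l and a gene known to respond to low oxygen, was at 288, 22.1 and 77.0 TPM in DMSO and 491, 56.2 and 159.5 TPM after CCS1477 in D/F. In T/F it was at 52.8, 127 and 49.7 TPM in DMSO and 83.0, 169 and 104 TPM after CCS1477. The mice differed from each other by more than the treatment did, and groups overlapped in both genotypes, but all 6 mice were higher after CCS1477. The changes of 1.04 ± 1.10 and 0.70 ± 0.44 were not called (limma adjusted p = 0.569 and 0.244), and were called with the mouse as a block (adjusted p = 0.0105 and 0.0204).

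Sqstm1 (p62), the receptor that gathers ubiquitin-tagged protein and is itself degraded by autophagy, was at 168, 301 and 137 TPM in DMSO and 272, 1221 and 276 TPM after CCS1477 in D/F. In T/F it was at 124, 149 and 147 TPM in DMSO and 251, 259 and 277 TPM after CCS1477. D/F mouse 2 stood far above the other libraries after CCS1477, and the other 5 treated libraries lay between 251 and 277 TPM. The T/F rise was 0.91 ± 0.09 (limma adjusted p = 0.00127, and 0.223 in a fit of all 4 groups). The D/F change was 1.24 ± 0.64 (adjusted p = 0.247, and 0.0349 with the block), and without mouse 2 it was 0.85 (adjusted p = 0.0281).

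Tax1bp1, a receptor related in domain structure to NDP52, had the highest mean DMSO level of all 38 members. It was at 224, 244 and 206 TPM in DMSO and 176, 239.7 and 178 TPM after CCS1477 in D/F. In T/F it was at 194, 177 and 198 TPM in DMSO and 169, 160.3 and 183 TPM after CCS1477. It was lower in each of the 6 mice, with overlapping groups and changes of -0.19 ± 0.18 and -0.15 ± 0.08 that were not called (limma adjusted p = 0.517 and 0.180). Nbr1, which resembles p62, rose in T/F by 0.73 ± 0.08 (adjusted p = 0.00178) and had a change of 0.80 ± 0.27 in D/F (adjusted p = 0.104, and 0.0110 with the block).

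**Figure D4:**
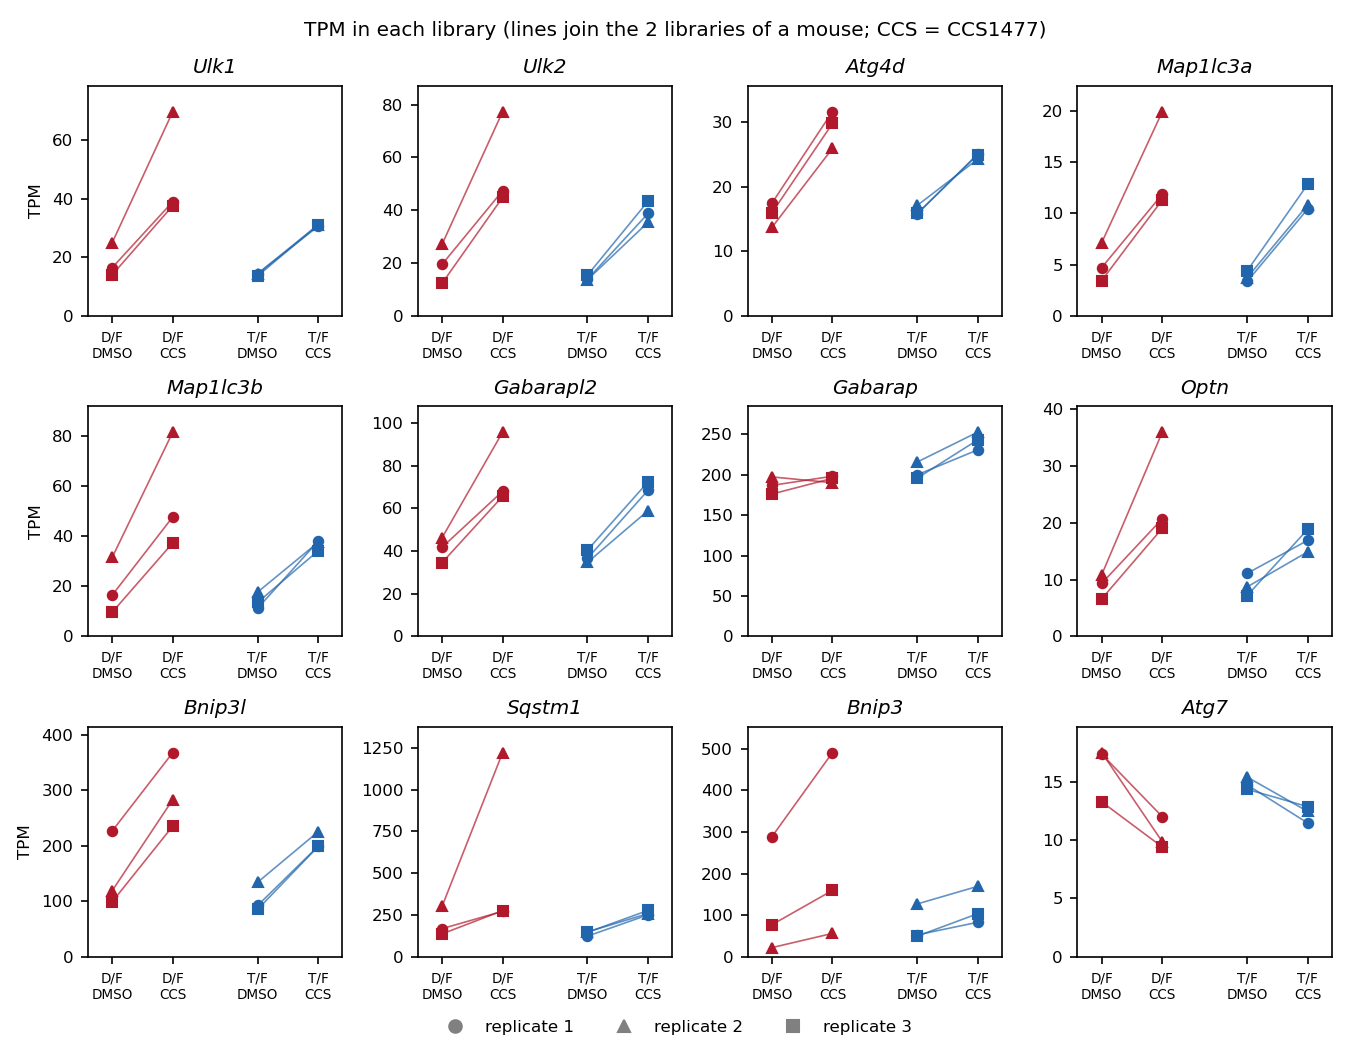
TPM of 12 members in each of the 12 libraries. Lines join the DMSO and CCS1477 libraries of a mouse, symbols mark replicates 1 to 3, red is D/F and blue T/F, and each axis starts at 0. Sqstm1 in D/F mouse 2 reaches 1221 TPM, whereas Bnip3 differs more between mice than with treatment and Atg7 is lower in all 6 mice.

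The levels of the members in DMSO spread widely, with Tax1bp1 highest and Map1lc3a lowest. Mean TPM over the 6 DMSO libraries was 207 for Tax1bp1, 195 for Gabarap, 171 for Sqstm1, 131 for Vmp1, 126 for Bnip3l and 103 for Bnip3. It was 17.0 for Ulk2, 16.6 for Map1lc3b, 16.3 for Ulk1, 8.95 for Optn and 4.46 for Map1lc3a. The ranges of all 37 pairs of neighbours in this order overlapped, so that no member was apart from its neighbours. Summed over the 38 members, the level was 2096 ± 277 TPM in D/F DMSO libraries and 3223 ± 745 TPM after CCS1477 (SD, n = 3). In T/F it was 1856 ± 75.6 and 2479 ± 97.3 TPM. The groups were apart in both genotypes, and the D/F sum of mouse 2 after CCS1477 includes Sqstm1 at 1221 TPM. The exact two-sided permutation p was 0.1 in each (adjusted p = 0.1), the smallest that 3 against 3 libraries allow. That test leaves out the pairing by mouse and could not have called a difference, so no conclusion is drawn from it.

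The response did not differ detectably between the genotypes. In the interaction of genotype and treatment limma called 0 of 38 members, as it did 0% of 15583 genes, and 0 members had an unadjusted p under 0.05, against 4.23%. The differences, T/F minus D/F, lay between -0.54 ± 0.42 (Atg16l2) and 0.32 ± 0.18 (Atg7) on the log2 scale. With the mouse as a block limma called 0 members, and 4 had an unadjusted p under 0.05 (Ulk1, Atg4d, Atg7 and Atg16l2), which is 4 of 38 against 14.7% of all genes. In DMSO 0 of 38 members were called by limma between the genotypes, against 0.0328% of 15265 genes, and 0 had an unadjusted p under 0.05, against 6.15%. The differences, T/F minus D/F, lay between -0.48 ± 0.27 (Wdr45) and 0.17 ± 0.13 (Vmp1).

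Around this machinery, 68 further autophagy genes in 4 lists were measured. In T/F 31 of them rose and 7 fell, with a median change of 0.21. In D/F 8 rose and 4 fell (25 and 8 with the block), with a median of 0.24. Over all genes 25.8% rose and 17.6% fell in T/F, with a median of 0.07. In D/F 5.14% of all genes rose and 6.51% fell (21.4% and 18.0% with the block), with a median of 0.06. The same values over all genes stand beside the counts of each list below. Among 23 other core genes and receptors, 9 rose and 3 fell in T/F and 2 rose and 2 fell in D/F (9 and 3 with the block). Atg9b, a relative of Atg9a, fell in D/F from 13.993 ± 1.86 to 1.07 ± 0.408 TPM (limma adjusted p = 0.00310). In T/F it fell as well, from 9.44 ± 0.533 to 1.19 ± 0.244 TPM (adjusted p = 0.000296), where Atg9a rose. Atg9b shares 294 exonic bases with Nos3 on the other strand. Tecpr1, which binds lysosomes and the ATG12-ATG5 conjugate, rose by 1.65 and 1.20, and Wdfy3 (ALFY), an adaptor for protein aggregates, by 0.85 and 0.74. Phb2, an inner mitochondrial membrane protein that can act as a mitophagy receptor, fell by 0.80 in D/F and by 0.73 in T/F.

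Among 15 transcription factors and binding partners that regulate autophagy, 9 rose and 2 fell in T/F and 4 rose and 1 fell in D/F (7 and 2 with the block). Foxo1, a transcription factor of several autophagy genes, rose in D/F from 3.97 ± 1.75 to 14.8 ± 2.30 TPM (limma adjusted p = 0.0162). Its T/F levels were 4.52 ± 0.950 TPM in DMSO and 13.6 ± 1.73 TPM after CCS1477 (adjusted p = 0.00150). Foxo4 rose by 0.89 and 0.87, and Trp53inp2, which carries nuclear LC3 to the cytoplasm, by 1.53 and 1.07. Bcl2, whose protein binds and restrains Beclin 1, fell in D/F from 39.5 ± 16.3 to 6.31 ± 1.17 TPM (adjusted p = 0.00889) and in T/F from 34.0 ± 9.10 to 6.33 ± 1.60 TPM (adjusted p = 0.00140).

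Of 17 genes of the mTORC1, AMPK and Rag GTPase pathways, 6 rose and 2 fell in T/F and 1 rose in D/F (6 and 2 with the block), with median changes of 0.11 and 0.23. Rraga, a Rag GTPase that brings mTORC1 to the lysosome, rose in both genotypes, by 0.71 and 0.57. Of 13 genes of autophagosome-lysosome fusion, 7 rose and none fell in T/F, and 1 rose and 1 fell in D/F (3 and 1 with the block). Plekhm1, an adaptor between Rab7, LC3 and the HOPS tethering complex, rose in both genotypes, by 0.65 and 0.41. Without the block the D/F counts of these last lists were near the shares over all genes, as was the T/F median of the kinase and GTPase list near that of all genes.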

How the data were processed

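RNA was sequenced from leukemic c-Kit+ spleen cells of 6 mice, each split between CCS1477 and DMSO. The labels name both ribosome depletion and a stranded mRNA kit. The authors deposited 1 table of TPM values per gene for 12 libraries, and the submitters' processing notes name kallisto and mm10. Library totals were 914204 to 931697 TPM, each listed gene reached at least 2.00 TPM in 1 library, and read depth is not given in the table.

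Genes were named through Ensembl identifiers (15252 of 15651 matched). Values were analysed as log2(TPM + 1) with limma 3.58.1 in R 4.3.3 (two-sided, Benjamini-Hochberg over all genes whose group mean reached 1 TPM at least once). A log2 change on this scale understates that of low genes. D/F and T/F were fitted apart. Same-mouse libraries deviated together from their group means (r = 0.355 to 0.671, at most 0.173 between mice), so the mouse was also fitted as a block. Scripts were tested on simulated data. Exonic overlaps come from GENCODE vM21: 16 members share exonic bases with another gene.

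The members and gene lists were chosen with earlier results of these data known. Values in every library are given for members called above 2-fold in 1 genotype, called in both genotypes, called in the interaction or between genotypes, or highest in DMSO within their role. From each further list at most 4 genes were named, those called with the same sign in both genotypes with the largest smaller change. Alternatives were the pseudocount, filter, trend, scaling, block, a fit of 4 groups and leaving out each mouse.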

Additional observations from a re-analysis of the deposited data

How the results depend on the processing

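In D/F the count of members called higher was 6. It was 2 with a pseudocount of 0.1, 23 with the mouse as a replicate block and 10 with a trend in the variance prior. It was 10 with quantile normalization, 21 with a fit of 4 groups and between 0 and 13 without 1 mouse. The share of all genes called also moved with the setting: in D/F 5.14% were called higher without the block and 21.4% with it. For the other settings that share is not given here, so their counts show how the calls depend on the test and not how the members compare with all genes. The count above 2-fold was 4, and it was 1, 9 and 7 with the small pseudocount, the block and the 4 groups, and between 0 and 5 without 1 mouse. No member was called lower, and 1 was with the block and with the 4 groups, and 0 to 1 without 1 mouse. With the block and without D/F mouse 1, 2 or 3, an alternative added after seeing the data, 15, 18 and 0 members were higher, 9, 5 and 0 above 2-fold and 0, 2 and 0 lower. In T/F the fit of 4 groups called 15 higher and 0 lower (25 at an unadjusted p under 0.05) in place of 25 and 3, and leaving out 1 mouse gave 15 to 21 higher, 0 to 1 lower and 4 to 5 above 2-fold. The T/F median change of 0.40 was 0.32 after rescaling to the median gene and 0.37 after quantile normalization. Over both genotypes 3 members were lower, and 5 with the block, 5 with the block without D/F mouse 2 and 1 to 5 without 1 mouse, while 8 above 2-fold became 5 to 8 without 1 mouse and 5 with the block without D/F mouse 2. The change of Vmp1 turned from -0.05 to 0.050 with quantile normalization in D/F (-0.15 to 0.13 without 1 mouse), and from 0.05 to -0.028 after rescaling in T/F (-0.030 to 0.16 without 1 mouse). No member was called in the interaction or between genotypes by limma under any alternative run, where at most 4 had an unadjusted p under 0.05, nor between genotypes in the CCS1477 libraries. The block changed no other count of member calls by over 1.5 times. Apart from the settings that leave out mice, which also hold fewer samples, the cause of these shifts was not tested. TPM keeps no depth, so counting error could not be separated from the spread between mice.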

Other observations

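Some regulators outside the naming rule also stood out, and were picked after their values were seen. Tfe3, a transcription factor of lysosome and autophagy genes, rose in D/F from 22.7 ± 1.34 to 54.5 ± 1.56 TPM (SD, n = 3; limma adjusted p = 0.00741) and in T/F from 28.7 ± 1.84 to 52.2 ± 2.76 TPM (adjusted p = 0.000906). Its relative Tfeb had a change of 0.44 in D/F (adjusted p = 0.211) and rose by 0.55 in T/F (adjusted p = 0.0427). Nfe2l2 (NRF2), a regulator of Sqstm1, had a change of 0.48 in D/F (adjusted p = 0.180, and 0.0437 with the mouse as a block) and rose by 0.31 in T/F (adjusted p = 0.00736). Vamp8, a SNARE protein of autophagosome-lysosome fusion, fell in D/F from 221 ± 47.6 to 115 ± 10.4 TPM (adjusted p = 0.0354), and its T/F levels of 190 ± 31.6 and 154 ± 1.73 TPM were not called apart (adjusted p = 0.122).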
